A study of Mus musculus with 4 samples.

Results

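The genes described here are 34 that code for integrin alpha and beta subunits and for the core proteins that couple integrins to actin, namely the talins, the kindlins, the integrin-linked kinase ILK, the PINCH protein Lims1 and the parvins. They were chosen by gene symbol, with earlier results of these data known. All 34 were found among the 55487 genes of the count table. The study followed wild-type ES-E14TG2a mouse embryonic stem cells (mESCs), a feeder-free line, through cardiogenic differentiation towards endothelial cells (ECs), with bulk RNA-seq of 2 d4 and 2 d2 libraries. The d2 cells had spent 48 h as aggregates in serum-free medium, and the d4 cells had in addition been taken apart and left to aggregate again for 40 h with Activin A (8 ng/ml), BMP4 (0.5 ng/ml) and VEGF (5 ng/ml). Both days therefore share the line and the base medium, and day, added factors and reaggregation cannot be told apart. The libraries of a day came from independent differentiation experiments according to the study.

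Integrins are receptors made of one alpha and one beta subunit that bind extracellular matrix or other cells, and the alpha subunit largely sets which ligand is bound. Talins and kindlins bind the beta tail inside the cell and switch the receptor to its active state, while the complex of ILK, PINCH and parvin links the same tail to actin. Pluripotent stem cells are known for laminin-binding integrin containing Itga6, endothelium for the fibronectin receptor made of Itga5 and Itgb1, and early blood and platelets for the pair Itga2b and Itgb3, known as CD41 and CD61.

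The libraries held 11397439 and 16851485 counts at d4, and 12068584 and 14038796 counts at d2. A level of 3 counts, taken as the floor, was 0.177 to 0.254 CPM, the count scaled to library size. The label names embryonic stem cells for both days, but the 8 pluripotency markers summed to 38.2 and 30.7 CPM at d4, against 1302 and 973 CPM at d2, with 6 of 8 lower. Of 8 mesoderm markers all 8 were higher at d4, and 7 of the 7 endothelial markers tested were higher as well. All 8 endothelial markers summed to 1185 and 889 CPM at d4, against 10.96 and 10.2 CPM at d2. Of the d4 sums Kdr alone held 601 and 463 CPM.

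The RNA of the integrin subunits differed in level and in make-up between d4 and d2. Integrin genes of the fibronectin, platelet and tenascin-binding classes rose (Itga5, Itga2b with Itgb3, and Itga9), the common partner Itgb1 rose, and the laminin receptor gene Itga6 fell. Among the adaptors the blood-type kindlin Fermt3 and the parvins Parva and Parvb rose and the epithelial kindlin Fermt1 fell. Of the 34 genes, 29 passed the filter on low counts, and the test called 15 of these higher at d4 and 3 lower and left 11 without a call (edgeR quasi-likelihood test, Benjamini-Hochberg adjusted p under 0.01 over 14932 genes). The same test called 12.9% of all genes tested higher and 11.3% lower. The median log2 fold change was 1.31 over the 29 genes and -0.03 over all genes tested. In bulk RNA, fewer cells of a type and less RNA per cell cannot be told apart.

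Of the 18 calls, 11 were of genes that passed the filter in both days. Another 5, of Itga2b, Itga8, Itga11, Itgb2 and Itgb3, were of genes that passed through d4 alone. The last 2, of Itgae and Fermt1, were of genes that passed through d2 alone. A gene that passed through a single day had to be higher there, so the counts over tested genes describe and do not support a direction. Among the 20 genes that passed in both days 10 were higher at d4 (50.0%) and 1 lower (5.00%). Of all 12374 such genes 10.3% were higher and 6.72% lower. The members were chosen with earlier results of these data known, so these shares describe them and are no test. The same limit of the filter holds for the counts over the marker lists and the related gene lists. Of the higher endothelial markers only Pecam1 and Tek passed in both days, and of the higher mesoderm markers only Pdgfra. With either d2 library left out, edgeR called none of the 18, and the lowest adjusted p over all genes was 0.0181 without d2 replicate 1 and 0.0172 without d2 replicate 2, although 22 of the 29 genes kept an unadjusted p under 0.05 and all 18 kept their sign. DESeq2 called 11 higher and 1 lower without d2 replicate 1, and 10 higher and 1 lower without d2 replicate 2. The calls that ended in DESeq2 were Itga6, Itga8, Itgb2 and Ilk without either d2 library, Itgb1 without d2 replicate 1, and Itga11 and Tln1 without d2 replicate 2. With a d4 library left out they were Itgae and Itgb2 in both fits, Itga11 without d4 replicate 1 and Itga8 without d4 replicate 2.

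**Figure D1:**
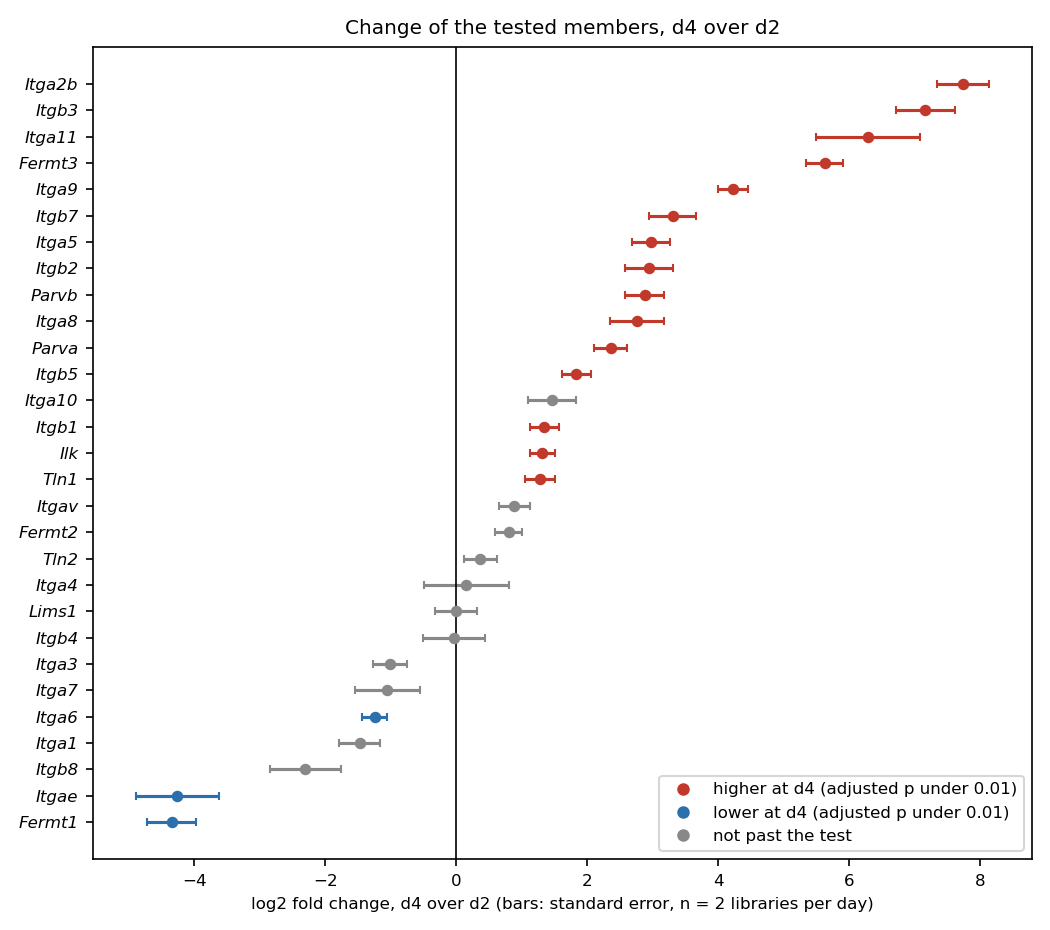
Log2 fold change, d4 over d2, of the 29 tested genes with its standard error (n = 2 libraries per day). Red marks the 15 genes higher at d4, blue the 3 lower and grey the 11 that did not pass the test, and the values run from 7.73 for Itga2b at the top to -4.35 for Fermt1 at the bottom.

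Promoter sequence is shown for the 2 kindlin genes that moved in opposite directions and for Itgb7, the only higher gene with a window that held a GATA match, because GATA and ETS factors are well known regulators of blood and endothelial genes. The windows are the bases before the RefSeq start on the gene's strand in GRCm38.p6, a C57BL/6J reference and not the sequence of the line, without bases inside the annotated gene. They are Fermt3 (chr19:7019470-7019719, minus strand), Fermt1 (chr2:132946037-132946286, minus strand) and Itgb7 (chr15:102231945-102232185, minus strand). Capitals mark an ETS word in the kindlin genes and a GATA word in Itgb7.
Fermt3: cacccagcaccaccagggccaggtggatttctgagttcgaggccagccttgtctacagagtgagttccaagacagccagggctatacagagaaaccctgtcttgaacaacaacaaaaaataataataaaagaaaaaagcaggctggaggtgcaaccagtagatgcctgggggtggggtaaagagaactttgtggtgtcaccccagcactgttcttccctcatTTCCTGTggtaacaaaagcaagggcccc
Fermt1: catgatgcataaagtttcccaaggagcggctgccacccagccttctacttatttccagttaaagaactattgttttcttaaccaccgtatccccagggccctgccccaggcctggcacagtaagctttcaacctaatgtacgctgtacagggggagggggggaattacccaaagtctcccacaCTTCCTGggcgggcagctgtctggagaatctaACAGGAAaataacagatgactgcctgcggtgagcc
Itgb7: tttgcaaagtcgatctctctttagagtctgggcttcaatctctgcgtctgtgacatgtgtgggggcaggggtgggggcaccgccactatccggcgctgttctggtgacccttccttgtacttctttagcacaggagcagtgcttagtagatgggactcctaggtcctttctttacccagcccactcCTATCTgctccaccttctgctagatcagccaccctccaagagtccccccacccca
An ETS word was either CCGGAAG itself, the variant ACGGAAG, the form CAGGAAG or finally ACAGGAA, and the last pair overlap. A GATA word was either AGATAA itself, the variant AGATAG, the form TGATAA or finally TGATAG. Each was searched on both strands. Over the 250 bases before the start, 22.2% of all 32851 promoters held an ETS word and 26.5% a GATA word. A window was available for 25 of the 34 genes, with 30 windows in all. Counted per gene, where any window of a gene could match, 10 held an ETS word and 3 a GATA word. The shares over all promoters are per window, so the 2 are not in the same unit. The ETS word lay 28 to 22 bases before the start in Fermt3, and Fermt1 held one at 67 to 61 and one at 35 to 29 bases. The kindlin gene that rose and the one that fell both carried an ETS word, and its role was not tested. Of the genes tested without a call, Itga1, Itga3, Itga10, Itgav and Lims1 also held one. Among the 12 higher genes with a window, 4 held an ETS word (Fermt3, Ilk, Itgb1 and Tln1) and 1 a GATA word (Itgb7, 64 to 59 bases before the start). Itga2b held neither, in a window that mostly lies inside the annotated gene. The ETS word of Tln1 and the whole window of Itga9 also lie inside the annotated genes, because these counts use all 250 bases. For Itgb3, Itgb2, Itga6, Itga7, Itgal, Itgae, Itgb4, Tln2 and Parva no window was used here.

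Itga2b, the alpha subunit of the platelet fibrinogen receptor and an early marker of embryonic blood progenitors (chromosome 11, 102453297 to 102470122, minus strand, mm10), had the largest log2 fold change of the 29 genes with all 4 libraries in the fit. It had 89.7 and 65.5 CPM in the d4 libraries, against 0.491 and 0.228 CPM in the d2 libraries. The d2 values rest on 6 and 3 counts and lie near the floor, while both d4 libraries lie far above it. The log2 fold change was 7.73 ± 0.40 (SE, adjusted p = 5.5e-05), and 8.35 without d2 replicate 1, where Itga11 was larger at 8.72, and 7.22 without d2 replicate 2, where Itgb3 was larger at 8.54.

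Itgb3, its beta partner, lies on the same chromosome (104608000 to 104670476, plus strand) and also pairs with Itgav as the vitronectin receptor. It had 36.4 and 33.7 CPM at d4, against 0.0818 and 0.380 CPM at d2, where the counts were 1 and 5. The d4 libraries are close to each other and the days do not overlap, a separation that 70.9% of all genes tested showed. The log2 fold change was 7.16 ± 0.46 (SE, adjusted p = 9.3e-05), but 6.50 without d2 replicate 1 and 8.54 without d2 replicate 2. Both genes of the CD41 and CD61 pair thus rose, but both passed the filter through d4 alone and so had to be higher there. Per kilobase of merged exon (RPKM), Itga2b stood at 16.4 and 12.0 and Itgb3 at 6.17 and 5.70 at d4, against 0.0900 and 0.0418 for Itga2b and 0.0139 and 0.0643 for Itgb3 at d2.

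Fermt3, the kindlin that activates integrins in blood cells and platelets, rose with them. It had 65.6 and 56.1 CPM at d4, against 1.39 and 1.06 CPM at d2 (log2 fold change 5.63 ± 0.28 SE, adjusted p = 5.1e-05). The 3 genes are known for blood cells, so the markers of those cells are given beside them. Of 14 blood and megakaryocyte progenitor markers 11 were tested and 10 were higher at d4. Of these 10 only Gata1 and Plek passed the filter in both days. The list summed to 449 and 304 CPM at d4, against 5.56 and 5.01 CPM at d2. Of these sums the globin gene Hbb-bh1 alone held 307 and 180 CPM at d4, against 0.164 and 0.608 CPM at d2. The platelet genes Gp1bb and Pf4 had 0 counts in all 4 libraries and Gp9 had a single count, in d4 replicate 1, whereas Gp1ba had 45 and 30 counts at d4 and 0 at d2. The part of blood progenitors in the rise of Itga2b, Itgb3 and Fermt3 was not tested.

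Itga5, the alpha subunit of the main fibronectin receptor (chromosome 15, 103344286 to 103366763, minus strand), had 145 and 110 CPM at d4, against 19.5 and 13 CPM at d2. Both d4 libraries lie well above both d2 libraries, and d4 replicate 1 is the highest. The log2 fold change was 2.97 ± 0.29 (SE, adjusted p = 3.5e-04). Fibronectin itself (Fn1), singled out after its values were seen because it is the ligand of this receptor, had 3448 and 1520 CPM at d4, against 176 and 117 CPM at d2 (log2 fold change 4.08 ± 0.45 SE, adjusted p = 5.6e-04).

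Itga8, which binds nephronectin and other ligands through the RGD motif, also rose, at a low level. It had 4.15 and 6.53 CPM at d4, against 0.654 and 0.911 CPM at d2 (log2 fold change 2.76 ± 0.41 SE, adjusted p = 0.0021). In DESeq2 its call ended without either d2 library or d4 replicate 2, with adjusted p of 0.022 to 0.099. Itgav, which pairs with several beta subunits to bind vitronectin and to activate TGF-beta, did not pass the test. It had 40.3 and 55.7 CPM at d4, against 24.3 and 27.6 CPM at d2 (log2 fold change 0.89 ± 0.24 SE, adjusted p = 0.025). Its estimate was 1.10 in edgeR without d4 replicate 1. In all 4 libraries it lay far above the floor, unlike its partner Itgb3.

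Itga9, a subunit that binds tenascin C and other ligands and is known for lymphatic valves, rose with a smaller SE than the 4 genes whose increase was larger. It had 62.3 and 60.0 CPM at d4, against 3.35 and 3.19 CPM at d2, and the replicates of each day nearly coincide. The log2 fold change was 4.22 ± 0.23 (SE, adjusted p = 6.6e-05). Its closest relative Itga4, the receptor for VCAM1 and fibronectin on blood cells and early mesoderm, behaved differently between the d4 libraries. Itga4 had 1.86 and 9.71 CPM at d4, against 4.66 and 5.92 CPM at d2, so that one d4 library lies below and the other above both d2 libraries. Its gap between d4 replicates was the widest of the 29 genes, and 0.841% of the 4997 genes with a mean of 2 to 20 CPM had a gap as wide. The log2 fold change was 0.16 ± 0.65 (SE, adjusted p = 0.87), but -1.50 without d4 replicate 2 and 0.87 without d4 replicate 1.

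Of the 3 laminin-binding subunits 1 passed the test, as lower. Itga6, which pairs with Itgb1 or Itgb4 and is the main laminin receptor subunit of mESCs (chromosome 2, 71745616 to 71858416, plus strand), had 82.9 and 82.8 CPM at d4, against 193 and 200 CPM at d2. The d4 libraries are almost equal and lie below the d2 libraries. The log2 fold change was -1.25 ± 0.19 (SE, adjusted p = 0.0022), and in DESeq2 the call ended without either d2 library (adjusted p = 0.031 in each fit). Itga3 and Itga7, the other laminin-binding subunits, had negative estimates that did not pass the test. Itga3 had 5.08 and 5.53 CPM at d4, against 11.9 and 9.57 CPM at d2 (adjusted p = 0.023), and Itga7 had 0.677 and 0.412 CPM at d4, against 1.31 and 0.911 CPM at d2 (adjusted p = 0.14). Both were lower in each d4 library than in either d2 library. Of all genes tested 70.9% showed such a separation, in either direction. That share stands beside each gene described here as separated between the days.

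Itga6 still took a place among the leading alpha subunits at d4, as the make-up of the family shows. Summed over the 17 alpha genes, the level per kilobase was 70.2 and 60.5 RPKM at d4, against 32.0 and 31.4 RPKM at d2. Of this sum Itga6 took 13.1% and 15.2% at d4, against 66.8% and 70.6% at d2. Itga5 was the largest at d4 with 41.7% and 36.8%, against 12.3% and 8.39% at d2, and Itga2b took 23.4% and 19.8%, against 0.281% and 0.133%. Itga9 held 11.5% and 12.9% at d4, against 1.36% and 1.32% at d2. The d2 cells thus carried mostly the RNA of a single alpha gene, and at d4 the sum was spread over Itga5, Itga2b, Itga6 and Itga9. With the length of the longest transcript in place of merged exons, added after the data were seen, the mean share of Itga6 was 21.3% at d4 and 78.1% at d2, and that of Itga5 was 31.7% at d4 and 6.30% at d2, so each day kept its leading gene.

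**Figure D2:**
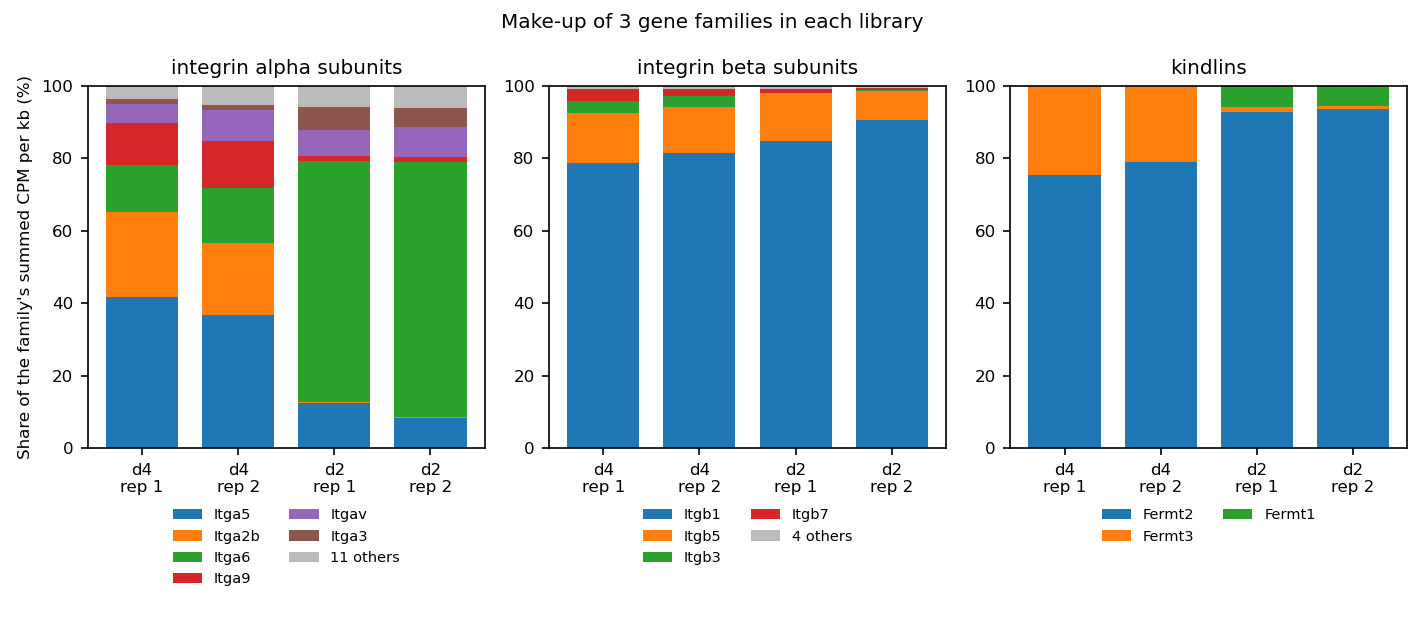
Share of the summed CPM per kilobase of exon (percent, stacked bars) taken by each gene of 3 families in each library, d4 at the left and d2 at the right of each panel. Itga6 falls to 13.1% and 15.2% of the alpha subunits at d4, against 66.8% and 70.6% at d2, while Itgb1 is 78.7% or more of the beta subunits in all 4 libraries and Fermt3 takes 24.5% and 20.8% of the kindlins at d4, against 1.21% and 0.759% at d2.

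Of the collagen-binding subunits only Itga11, a collagen receptor of mesenchymal cells, passed the test. It had 58 and 47 counts at d4, against 1 and 0 counts at d2, a ratio of 92.6 per normalized count with a 95% exact binomial interval of 16.3 to 3690 that covers counting error only (adjusted p = 0.0010). The fitted log2 fold change of 6.29 was 8.72 without d2 replicate 1 and 5.33 without d2 replicate 2, so its size is set by 1 count, and in DESeq2 its call ended without d2 replicate 2 or d4 replicate 1 (adjusted p = 0.014 and 0.013). Itga1, which binds collagens and laminin, had 2.88 and 4.24 CPM at d4, against 8.75 and 11.2 CPM at d2 (log2 fold change -1.47 ± 0.31 SE), and missed the threshold narrowly with an adjusted p of 0.0101. DESeq2 with all 4 libraries called Itga1 lower (log2 fold change -1.48, adjusted p = 0.0027). Without d4 replicate 2 its estimate was -1.79 in edgeR and -1.80 in DESeq2. Itga10, known from cartilage, had 2.88 and 2.82 CPM at d4, against 1.23 and 0.835 CPM at d2 (adjusted p = 0.018), and 33.5% of its exon length overlaps an annotated gene model on the same strand. Itga2, the platelet collagen receptor, was under the filter with 6 and 12 counts at d4, against 1 and 1 at d2 (ratio 7.93, interval 1.90 to 70.5).

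Among the beta subunits the common partner Itgb1 (chromosome 8, 128685654 to 128733200, plus strand), which pairs with most alpha subunits, was the most abundant in every library. It had 595 and 629 CPM at d4, against 202 and 280 CPM at d2 (log2 fold change 1.34 ± 0.22 SE, adjusted p = 0.0033, and 0.062 in DESeq2 without d2 replicate 1). The lowest d4 library is still above the highest d2 library. Itgb5, which joins Itgav in another vitronectin receptor, had 91.2 and 85.8 CPM at d4, against 27.9 and 21.7 CPM at d2 (log2 fold change 1.84 ± 0.22 SE, adjusted p = 8.6e-04). The summed level of the 8 beta genes was 185 and 189 RPKM at d4, against 58.5 and 75.7 RPKM at d2. Itgb1 made up 78.7% and 81.4% of it at d4, against 84.7% and 90.6% at d2. The make-up therefore changed less in the beta than in the alpha family, although Itgb3 took 3.33% and 3.02% at d4, against 0.0237% and 0.0850% at d2.

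The remaining beta genes were low. Itgb8, a partner of Itgav in TGF-beta activation, had 0.169 and 0.647 CPM at d4, against 2.13 and 2.28 CPM at d2. It did not pass the test (log2 fold change -2.30 ± 0.54 SE, adjusted p = 0.014). Its estimate was -3.62 without d4 replicate 2. Itgb4, the hemidesmosome subunit that pairs with Itga6, had 1.02 and 0.706 CPM at d4, against 1.06 and 0.683 CPM at d2, and the days overlap (adjusted p = 0.95). Itgb6, an epithelial subunit, had a single count in d4 replicate 2 and 0 in the other libraries.

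The leukocyte beta subunits Itgb7 and Itgb2 both rose, and of their alpha partners Itga4 and Itgae were tested without passing as higher, while Itgal, Itgam and Itgax were under the filter and had no test. Itgb7 pairs with Itga4 or Itgae on lymphocytes. It had 16.8 and 10.7 CPM at d4, against 1.47 and 1.29 CPM at d2 (log2 fold change 3.30 ± 0.36 SE, adjusted p = 5.3e-04). Itgb2, the beta chain shared by the leukocyte adhesion receptors, had 4.06 and 3.94 CPM at d4, against 0.572 and 0.456 CPM at d2 (log2 fold change 2.94 ± 0.37 SE, adjusted p = 0.0011), a call that ended in DESeq2 with any library left out (adjusted p = 0.026 to 0.056). In both genes each d4 library lies above each d2 library.

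Itgae, which with Itgb7 binds E-cadherin, fell. It had 1 and 1 counts at d4, against 21 and 17 counts at d2, a ratio of 0.0464 with an exact binomial interval of 0.00542 to 0.180 for counting error (adjusted p = 0.0021). In DESeq2 its call ended without either d4 library (adjusted p = 0.072 and 0.11). The alpha partners of Itgb2 stayed at a few counts. Itgal had 2 and 3 counts at d4, against 6 and 12 at d2, Itgam had 0 and 1 at d4, against 3 and 2 at d2, and Itgax had 0 in all 4 libraries. Itgad, a further alpha subunit gene that is not among the members, also had 0 counts in all 4 libraries. Of the Itgam exon length 68.7% overlaps another annotated gene model on the same strand, and reads shared by overlapping genes were not counted. Of 11 leukocyte markers 3 were tested, with Spi1 higher and Coro1a lower at d4, and the list summed to 10.7 and 8.24 CPM at d4, against 29.6 and 23.0 CPM at d2. Coro1a alone set that direction, with 1.44 and 1.00 CPM at d4, against 24.7 and 19.1 CPM at d2, and the other 10 markers, summed without it after the data were seen, came to 9.31 and 7.24 CPM at d4, against 4.91 and 3.95 CPM at d2. The pan-leukocyte gene Ptprc had 0 counts in all 4 libraries, and the macrophage gene Csf1r had a single count in d4 replicate 1.

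**Figure D3:**
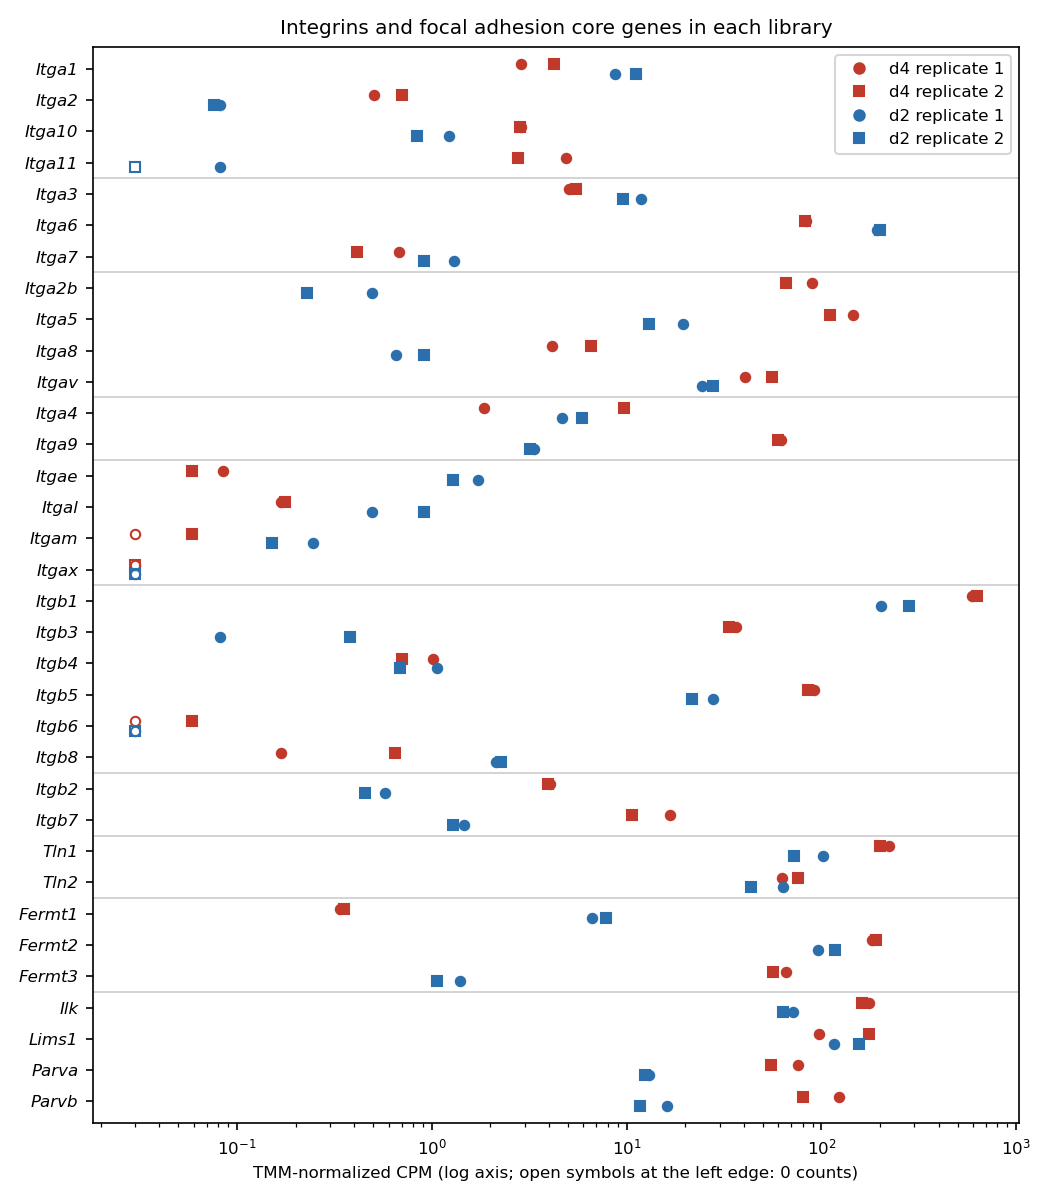
TMM-normalized CPM on a log axis of all 34 genes in each library, with d4 in red above d2 in blue, circles for replicate 1 and squares for replicate 2, and open symbols at the left edge for 0 counts. Lines separate the classes by role, and the red and blue symbols lie furthest apart for Itga2b, where d4 sits at 89.7 and 65.5 CPM and d2 at 0.491 and 0.228 CPM.

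The adaptors that switch integrins on changed in opposite directions within the kindlin family. Fermt1, the kindlin of epithelia, had 0.339 and 0.353 CPM at d4, against 6.62 and 7.82 CPM at d2 (log2 fold change -4.35 ± 0.37 SE, adjusted p = 2.2e-04). Its d4 values rest on 4 and 6 counts, and it passed the filter through d2 alone, so it had to be lower at d4. Fermt2, the kindlin of most other tissues, had 181 and 191 CPM at d4, against 95.7 and 118 CPM at d2. It did not pass the test (log2 fold change 0.80 ± 0.20 SE, adjusted p = 0.019), though DESeq2 with all 4 libraries called it higher. It remained the main kindlin, with 75.3% and 79.0% of the family's level per kilobase at d4, against 92.9% and 93.6% at d2. Fermt3 accounted for 24.5% and 20.8% at d4, against 1.21% and 0.759% at d2, and Fermt1 for 0.128% and 0.133%, against 5.86% and 5.66%. The second-ranked kindlin was thus Fermt3 at d4 and Fermt1 at d2.

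Tln1, the talin of most cells and of platelets, had 222 and 200 CPM at d4, against 102.1 and 72.6 CPM at d2 (log2 fold change 1.28 ± 0.23 SE, adjusted p = 0.0052, and 0.083 in DESeq2 without d2 replicate 2). Its d4 libraries both exceed its d2 libraries. Tln2, the talin known from muscle and brain, had 62.4 and 75.6 CPM at d4, against 63.2 and 43.6 CPM at d2, and the days overlap (adjusted p = 0.28). Tln1 made up 87.0% and 83.2% of the talin level per kilobase at d4, against 75.2% and 75.7% at d2.

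In the complex of ILK, PINCH and parvin, 3 of the 4 members rose, and of all genes tested 12.9% were higher. Ilk, the scaffold of the complex, had 175 and 161 CPM at d4, against 71.8 and 63.6 CPM at d2 (log2 fold change 1.31 ± 0.20 SE, adjusted p = 0.0021, and 0.016 and 0.032 in DESeq2 without d2 replicate 1 and 2). Parva, the broadly expressed parvin, had 75.6 and 54.8 CPM at d4, against 13 and 12.4 CPM at d2 (log2 fold change 2.35 ± 0.25 SE, adjusted p = 4.8e-04). Parvb, the parvin known from heart and skeletal muscle, had 123 and 80.6 CPM at d4, against 16.0 and 11.7 CPM at d2 (log2 fold change 2.88 ± 0.30 SE, adjusted p = 4.7e-04). Parva and Parvb are both highest in d4 replicate 1, and in both each d4 library lies above the d2 libraries. Summed per kilobase, Parva and Parvb stood at 35.3 and 23.6 RPKM at d4, against 4.91 and 3.87 RPKM at d2. The further parvin gene Parvg is not among the members. It had 1.95 and 1.35 CPM at d4, against 0.0818 and 0.304 CPM at d2.

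Lims1, the PINCH adaptor of the complex, did not follow its partners. It had 97.1 and 175 CPM at d4, against 117 and 157 CPM at d2, so that the d4 libraries enclose the d2 libraries (log2 fold change -0.003 ± 0.32 SE, adjusted p = 0.99). The estimate was 0.36 without d4 replicate 1 and -0.49 without d4 replicate 2, so its sign rests on a single library. Its relative Lims2 was under the filter, with 11 and 5 counts at d4, against 2 and 1 at d2.

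Genes around the integrins were counted in lists of related function. Of 34 other adhesion adaptors and kinases 33 were tested, 7 were higher at d4 (21.2%) and 1 was lower (3.03%). Over all genes tested the shares were 12.9% and 11.3%. Of the 7 higher genes Nedd9 and Parvg passed the filter through d4 alone. The median log2 fold change was 0.38, against -0.03 for all genes. The 4 with the smallest adjusted p among the higher genes were the docking protein Nedd9 (log2 fold change 4.51 ± 0.32 SE, adjusted p = 1.2e-04), the paxillin relative Tgfb1i1 (4.09 ± 0.40, adjusted p = 3.7e-04), the tensin Tns2 (2.05 ± 0.32, adjusted p = 0.0028) and paxillin itself, Pxn (1.41 ± 0.27, adjusted p = 0.0061). Ptk2b, a kinase related to focal adhesion kinase, was the one that fell (log2 fold change -1.87 ± 0.34 SE, adjusted p = 0.0051). Vinculin (Vcl), zyxin (Zyx), focal adhesion kinase (Ptk2), Src and filamin (Flna) were among the 25 that did not pass.

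Of 21 genes listed as integrin activity modulators, which include the alpha subunit gene Itgad, 17 were tested. At d4 4 were higher (23.5%, against 12.9% of all genes tested), 0 were lower (against 11.3%) and 13 did not pass. The median log2 fold change was 0.85. The higher genes were the tetraspanin Tspan18 (log2 fold change 4.79 ± 0.33 SE, adjusted p = 1.1e-04), the thrombospondin receptor Cd47 (1.75 ± 0.23, adjusted p = 0.0012), Cd151, a tetraspanin that associates with laminin-binding integrins (1.24 ± 0.19, adjusted p = 0.0024), and the tetraspanin Cd9 (1.22 ± 0.23, adjusted p = 0.0055). The small GTPase genes Rap1a and Rap1b, which act upstream of talin, did not pass the test.

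Ligands held the most calls of these lists. Of 35 ligand genes 28 were tested, 19 were higher (67.9%) and 4 were lower (14.3%) at d4. Over all genes tested the shares were 12.9% and 11.3%. The median log2 fold change was 3.68. Lama4, Col1a1, Col6a1, Tnc, Postn, Edil3, Vwf, Icam2 and Svep1 passed the filter through d4 alone, so they had to be higher there. Spp1 and Icam1 passed through d2 alone, so they had to be lower at d4. The laminin chain Lama4 had 98.9 and 85.4 CPM at d4, against 0.900 and 0.759 CPM at d2 (adjusted p = 4.0e-05). Tenascin C (Tnc), a ligand of Itga9, had 64.6 and 50.1 CPM at d4, against 0.164 and 0.304 CPM at d2 (adjusted p = 4.5e-05). The basement membrane protein Nid1 (adjusted p = 7.0e-05) and Icam2, a ligand of the Itgb2 receptors on endothelium (adjusted p = 9.7e-05), completed the leading 4.

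The 4 ligand genes that fell were Cdh1, Spp1, Icam1 and Thbs1. Cdh1, the E-cadherin bound by the Itgae receptor, had 6.94 and 3.06 CPM at d4, against 879 and 778 CPM at d2 (log2 fold change -7.39 ± 0.45 SE, adjusted p = 8.1e-05). Spp1, or osteopontin, had 0 and 1 counts at d4, against 66 and 126 at d2 (adjusted p = 3.5e-04). Icam1, the leukocyte receptor ligand, had a log2 fold change of -2.72 ± 0.46 (SE, adjusted p = 0.0037), and thrombospondin (Thbs1) of -1.53 ± 0.32 (SE, adjusted p = 0.0097). Receptor and ligand genes, paired here after their values were seen, did not all change in one direction. Itga5 and Fn1 were both higher, as were Itga9 and Tnc, and Itgae and Cdh1 were both lower. Itga6 was lower, while the laminin chains Lama1, Lama4 and Lamb2 were higher. The laminin chains Lama2, Lama5, Lamb1 and Lamc1 did not pass the test, and the estimate of Lama5 was negative (log2 fold change -0.47, adjusted p = 0.36). Itgb2 was higher, while of its ligand genes Icam2 was higher and Icam1 was lower. Itgb3 was higher while Spp1 was lower, but the ligand genes Fn1, Vwf, Edil3 and Mfge8 were higher. The vitronectin gene Vtn had 0 counts in every library, and the fibrinogen genes Fga, Fgb and Fgg were under the filter. Itga8 was higher, while its ligand gene Npnt did not pass the test (log2 fold change -0.41, adjusted p = 0.38).

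**Figure D4:**
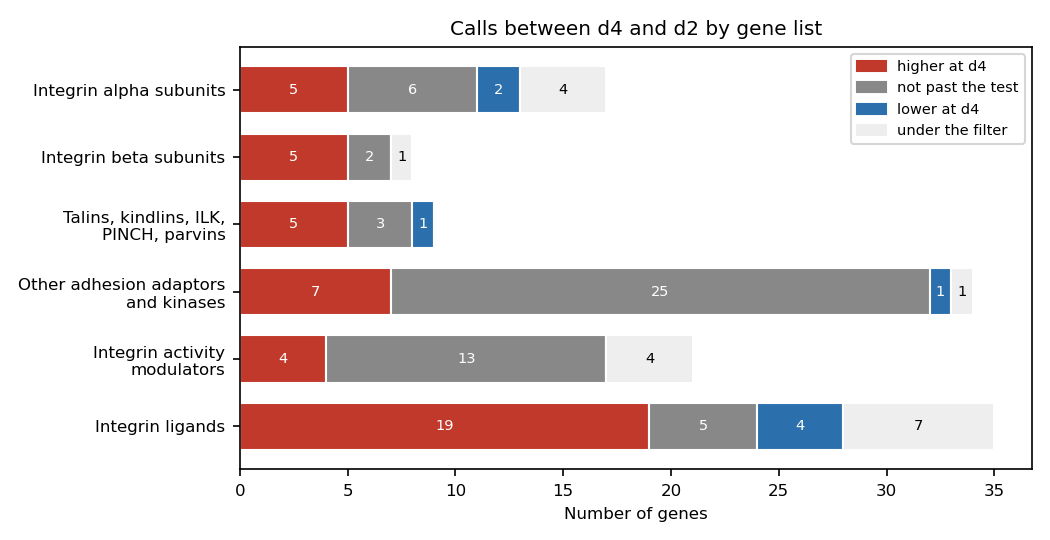
Number of genes in each list that were higher at d4 (red), did not pass the test (grey), were lower at d4 (blue) or were under the filter on low counts (pale). The integrin and adaptor bars at the top hold the 34 genes described here, and the ligand bar at the bottom has 19 higher and 4 lower of 28 tested.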

How the data were processed

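Total RNA from 2 d4 and 2 d2 cultures was sequenced from strand-specific libraries as paired-end reads of 75 bases. According to the study the reads were trimmed with cutadapt and aligned to mm10 with STAR. The deposited values are whole-number counts of read pairs per gene that the authors made with featureCounts, leaving out multi-mapping reads and reads shared by overlapping genes. Every row carried an Ensembl gene ID, of which 55227 of 55487 matched the annotation. Gene names, positions and exon lengths came from GENCODE M21, and promoters from RefSeq on GRCm38.p6.

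Genes were kept where a day's summed counts exceeded 0.5 CPM in a proportion test (adjusted p under 0.05). The 14932 kept genes were fitted with edgeR 4.0.16 (R 4.3.3, TMM factors, quasi-likelihood test, day as the only term), with Benjamini-Hochberg adjustment over all of them and a threshold of 0.01. DESeq2 1.42.0, limma 3.58.1 voom, other scalings and filters, thinning, a replicate block and leaving out each library were alternatives. Every one of the 34 genes is accounted for, and up to 4 genes per direction with the smallest adjusted p are named from each related list. Members and lists were chosen with earlier results of these data known.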

Additional observations from a re-analysis of the deposited data

How the results depend on the processing

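The 18 calls kept their direction and their side of the threshold with DESeq2 size factors, upper-quartile factors, no filter, the filterByExpr filter, DESeq2, limma voom, a threshold of 0.05, thinned libraries and the replicate block. The number of lower members was 5 with upper-quartile factors (which put the median of all genes at -0.11), and 6 with no filter and with a threshold of 0.05. Over all genes, 2901 were higher and 2873 lower with no filter, and 2991 higher and 2679 lower at 0.05. Leaving out 1 library at a time, with edgeR, DESeq2 or limma voom, gave 0 to 16 higher and 0 to 5 lower members and 0 to 2269 higher and 0 to 2475 lower genes in all. The lowest of these counts came from edgeR and limma voom without either d2 library, and the reason was not tested. In each fit that leaves a lone library in a day, it is assumed to vary like those of the other day. The DESeq2 calls that ended with a library left out were of Itga6, Itga8, Itga11, Itgae, Itgb1, Itgb2, Tln1 and Ilk, and DESeq2 gave Itgae no adjusted p without either d2 library. Itga4 reversed to -0.20 with limma voom, Itgb4 to 0.15 in thinned libraries, and Lims1 to 0.011 with no filter and 0.002 in thinned libraries. With 1 library left out, Itga4 ranged from -1.52 to 0.91, Itgb4 from -0.39 to 0.32 and Lims1 from -0.50 to 0.39. These 3 genes did not pass the test, and the cause was not tested. With the replicate number as a block, 18 members were higher and 6 lower, 3478 genes were higher and 3496 lower, and Itga4 was at -0.055. The labels do not say that a number marks a shared experiment, and the deviations of d4 and d2 replicate 1 from their day means correlated at 0.482 over 14932 genes. Itgal, Itgam, Itgax, Itgb6 and Itga2 were under the filter and had no test, the ratio of Itgam (0.176) has a counting interval of 0.00373 to 1.58, and 2 against 2 libraries cannot give a two-sided exact permutation p below 0.333.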
